A study of Arabidopsis thaliana with 36 samples.

Results

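Carotenoid and xanthophyll cycle enzymes were examined here as 10 genes of Arabidopsis thaliana, picked by locus from a transcript table of 37336 genes. The genes were PSY (AT5G17230), PDS (AT4G14210), LYCB (AT3G10230), LUT2 (AT5G57030), LUT5 (AT1G31800), LUT1 (AT3G53130), BCH1 (AT4G25700), BCH2 (AT5G52570), VDE (AT1G08550) and ZEP (AT5G67030). Transcripts were measured by RNA-Seq in fully expanded leaves of the wild-type ecotypes Wassilewskija (WS) and Columbia-0 (Col-0). Leaves were taken at 120 μmol photons m-2 s-1 of photon flux density (PFD), which gives 0 min, and again 15, 30, 60, 120 and 240 min after it had been raised to 500 μmol photons m-2 s-1. Each of the 12 groups of ecotype and time held 3 libraries, 36 in all. According to the methods, plants grew in hydroponics, stood in a gas exchange chamber during the treatment, and gave 1 leaf at each time, so that the same 3 plants of an ecotype were sampled again and again. No library analysed here came from plants held at the lower PFD after 0 min. In every comparison with 0 min, light, time of day, repeated leaf removal and the stay in the chamber therefore cannot be told apart.

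Carotenoids are made in the plastid from geranylgeranyl diphosphate, which the methylerythritol phosphate (MEP) pathway supplies. Phytoene synthase (PSY) makes the first committed product, desaturases such as PDS lengthen its run of double bonds toward lycopene, and the cyclases LYCB and LUT2 close the rings at its ends. Hydroxylases turn the resulting carotenes into xanthophylls. LUT5 and LUT1 act mainly on the way to lutein, and BCH1 and BCH2 mainly on the way to zeaxanthin. In leaves, the xanthophyll cycle links zeaxanthin and violaxanthin. Violaxanthin de-epoxidase (VDE), in the thylakoid lumen, makes zeaxanthin in excess light, and zeaxanthin epoxidase (ZEP) makes violaxanthin again. Zeaxanthin aids the safe loss of absorbed energy as heat, and products of ZEP are also precursors of the hormone abscisic acid (ABA).

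The paired hydroxylase genes BCH1 and BCH2 took different courses up to 60 min after the light was raised, though both were lowest at 240 min. The 250 bases before their annotated starts are shown, 5′ to 3′ on the gene's own strand. BCH2 lies on the minus strand of chromosome 5 in TAIR10.1, with these bases at chr5:21337127-21337376, and BCH1 lies on the minus strand of chromosome 4, with its bases at chr4:13096050-13096299. Capitals mark the G-box letters CACGTG in BCH2, 151 bases before the start, and the letters ATCTA in BCH1, 238 bases before the start.
BCH2: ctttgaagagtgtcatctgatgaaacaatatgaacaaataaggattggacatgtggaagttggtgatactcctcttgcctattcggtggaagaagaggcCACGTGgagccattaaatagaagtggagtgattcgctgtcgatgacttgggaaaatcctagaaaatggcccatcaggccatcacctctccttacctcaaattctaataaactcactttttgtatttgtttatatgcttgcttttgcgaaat
BCH1: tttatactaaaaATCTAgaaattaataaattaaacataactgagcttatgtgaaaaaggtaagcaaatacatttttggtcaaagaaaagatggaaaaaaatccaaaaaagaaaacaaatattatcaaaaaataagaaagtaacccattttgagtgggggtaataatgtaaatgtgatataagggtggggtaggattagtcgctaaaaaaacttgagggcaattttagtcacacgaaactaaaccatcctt
Both strands were searched from 250 bases before to 50 bases after the start of each gene, and no matches overlapped. CACGTG was found in 1 of the 10 genes (BCH2) and in 7.7% of 27555 windows of that length over the genome. ATCTA was found in 3 (PDS, LUT2 and BCH1) and in 54.0% of the windows. The evening element core AATATCT was found in 1 (VDE, 12 bases after the start) and in 11.5% of the windows. These are matches of letters, and no binding was measured.

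All 10 genes had readings above 7 RPKM (mapped reads scaled by transcript length and by the total of the library), which was the floor for testing, so none was left out of the 13817 genes tested. Reads in genes, recovered from the steps in the RPKM values, were between 7344154 and 41660812 per library. A value of the 10 genes rested on 35 reads (BCH2 in WS at 240 min, replicate 3) to 50088 reads (ZEP). Leaf tissue was checked with marker genes. The summed RPKM of 5 mesophyll markers (RBCS1A, RBCS2B, RCA, CA1 and LHCA1) lay between 8330 and 47100 in every library, and the sum of 4 root markers did not exceed 0.24. Sums of epidermis markers were between 36.9 and 225, of guard cell markers between 9.97 and 42.4 and of companion cell markers between 12.0 and 101 RPKM, and no leaf cell list was at 0 in any library. The mesophyll sum itself moved with time, with mean values of 39500 in WS and 37700 in Col-0 at 0 min, 16900 in WS and 23600 in Col-0 at 120 min, and 16000 in WS and 20100 in Col-0 by 240 min. Among markers of other cell types, the mean epidermis sum in Col-0 was 66.4 RPKM at 240 min, against 134 RPKM at 0 min, and the mean guard cell sum in WS was 32.4 RPKM at 240 min, against 23.9 RPKM at 0 min. FDH (epidermis) and APL (companion cell) were called lower in Col-0 at 240 min (-1.22 and -0.64), FAMA (guard cell) was higher in Col-0 at 120 min (0.67), KAT1 (guard cell) was higher in WS at 240 min (1.67), and MYB60 (guard cell) was lower in WS at 30 and 240 min (-0.96 and -0.85) and in Col-0 at 60 min (-0.94). The part of these markers in the falls described here was not tested. In bulk leaves, fewer cells of a type and less RNA per cell cannot be told apart. Each library was compared with the group means by root mean square difference, the library itself left out of its own group. By this distance, 27 of 36 came closest to the group of their own label. Among the others, WS replicate 3 at 120 min lay nearest to WS at 240 min and Col-0 replicate 1 at 120 min nearest to Col-0 at 240 min, and all 3 Col-0 libraries at 60 min lay nearest to Col-0 at 30 min. Main counts, and values that changed most, were also taken without 4 libraries (these 120 min libraries, Col-0 replicate 1 at 60 min and the shallowest library, WS replicate 1 at 0 min), a choice made after seeing the data. The 120 min libraries left out were those nearest to 240 min. Their removal by itself tends to widen differences at 120 min and from 120 to 240 min, so such gains are no added support.

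At 0 min, ZEP and PSY were the most abundant of these transcripts per length, with means of 369 ± 82.1 and 218 ± 41.7 RPKM in WS and 454 ± 22.5 and 308 ± 22.2 RPKM in Col-0 (SD, n = 3). In each ecotype, the libraries of ZEP, of PSY and of all the other genes did not overlap. The middle of the order was close. In WS it ran from PDS at 89.1 ± 21.8 RPKM through LUT2, LYCB, LUT5, BCH1 and BCH2 to VDE at 44.0 ± 16.7 RPKM, and in Col-0 from BCH1 at 130 ± 68.0 RPKM through LYCB, BCH2, PDS, LUT2 and LUT5 to VDE at 26.5 ± 15.7 RPKM. LUT1 was lowest in both, at 22.6 ± 2.87 RPKM in WS and 17.2 ± 1.68 RPKM in Col-0, and its Col-0 libraries overlapped those of VDE. None of the 10 genes differed between WS and Col-0 at 0 min in limma's test (adjusted p under 0.05), where 6.59% of all genes tested did. At an unadjusted p under 0.05 the count was also 0, and voom on the recovered reads gave 0. The widest interval was that of BCH2, whose log2 difference of WS minus Col-0 was -1.02 (95% interval -2.32 to 0.29).

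No gene was called at 15 or 30 min, BCH2 rose at 60 min, and most genes had fallen at 120 or 240 min. At 15 min, 0 of 10 genes rose and 0 fell in WS, where 2.64% of all genes tested rose and 0.0796% fell, and 0 and 0 in Col-0, where 2.85% rose and 0.246% fell. At 30 min, again 0 rose and 0 fell in WS (all genes 6.36% and 2.38%) and in Col-0 (all genes 5.08% and 1.77%). At an unadjusted p under 0.05 the counts were 0 in each ecotype at 15 min and 1 in each at 30 min, and voom called 0 in all of these comparisons. At 60 min, 1 rose (BCH2) and 1 fell (LUT2) in WS, beside 16.8% and 10% of all genes, and 1 rose (BCH2) and 0 fell in Col-0, beside 10.1% and 6.44%.

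At 120 min, 7 of 10 genes were lower in WS (PSY, LYCB, LUT2, LUT5, LUT1, VDE and ZEP) and 0 higher, beside 17.3% and 23.2% of all genes. In Col-0, 5 were lower (PSY, LYCB, LUT2, VDE and ZEP) and 0 higher, beside 15.7% and 20.3%. At 240 min, 6 were lower in WS (PSY, PDS, LYCB, LUT2, BCH2 and ZEP) and 0 higher, beside 10.1% and 14.5%, and 7 were lower in Col-0 (these 6 and BCH1) and 0 higher, beside 13.1% and 17.0%. Without the 4 libraries, 8 were lower in WS and 6 in Col-0 at 120 min (all genes 19.6% and 19.5%). In that fit 1 was higher in Col-0 at 120 min (BCH2), beside 25.9% of all genes. The counts lower at 240 min were again 6 and 7, beside 8.61% of all genes in WS and 15.6% in Col-0. The median log2 difference of the 10 genes at 120 min was -0.93 in WS and -0.79 in Col-0, where the median of all genes tested was 0.10 and 0.06. At 240 min the medians were -0.88 and -1.21, and those of all genes 0.04 and 0.04. Rescaling every library to the same sum (TPM) moved the median of all genes to 0.20 in WS at 120 min, 0.27 in WS at 240 min and 0.21 in Col-0 at 240 min. With that rescaling the share of higher among all genes called became 79.2% in WS (58.9% as deposited) and 71.8% in Col-0 (56.5% as deposited) at 240 min, and calls that it ended are named with each gene.

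**Figure D1:**
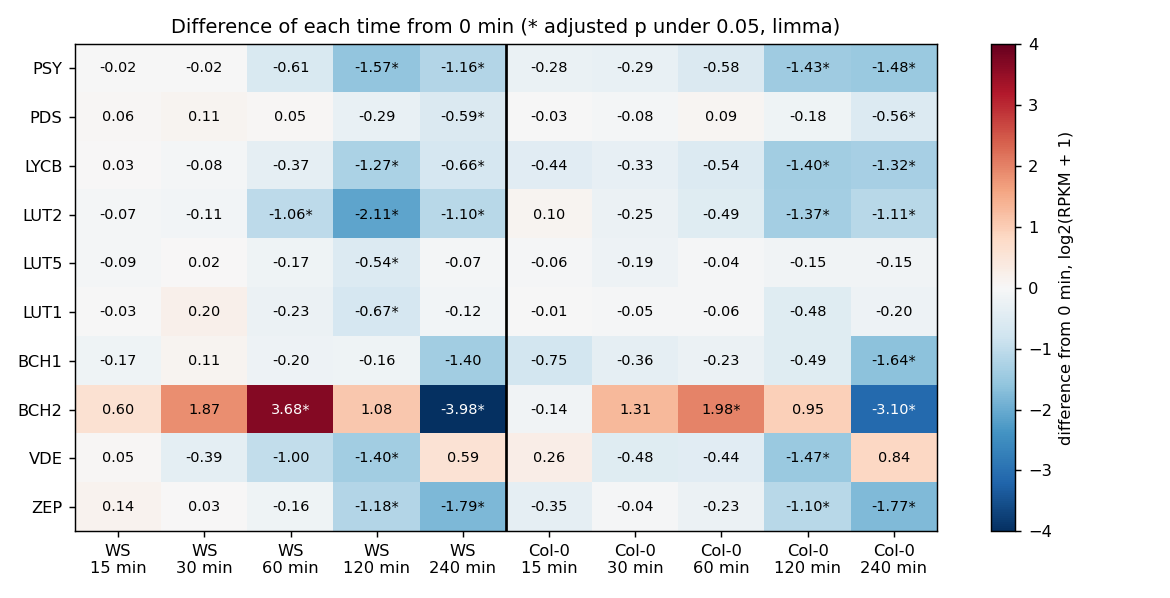
Log2 difference of each time from 0 min on the log2(RPKM + 1) scale for the 10 genes (rows) in WS (left columns) and Col-0 (right columns), with an asterisk where limma's adjusted p was under 0.05. BCH2 is the only row with positive called values (3.68 in WS and 1.98 in Col-0 at 60 min), and called negative values fill most of PSY, LYCB, LUT2 and ZEP at 120 and 240 min.

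PSY, at the entry of the pathway, was not called up to 60 min and fell by 120 min. The gene lies on the minus strand of chromosome 5 (5659554 to 5662997, TAIR10.1) with 7 exon blocks. At 120 min it had 73.0, 42.1 and 120.2 RPKM in WS, against 175, 258 and 220 RPKM in WS at 0 min. In Col-0 it had 125, 123 and 94.1 RPKM at 120 min, against 315, 282 and 325 RPKM at 0 min. The libraries did not overlap in either ecotype, and WS replicate 3 was the highest of the WS libraries at 120 min. The means were 2.77-fold lower in WS and 2.70-fold lower in Col-0 (log2 differences -1.57 and -1.43, SE 0.31 each, limma adjusted p = 0.00021 and 0.00066). At 240 min PSY remained low, with 143, 77.5 and 79.1 RPKM in WS and 89.0, 114 and 128 RPKM in Col-0 (log2 differences from 0 min -1.16 and -1.48, adjusted p = 0.0059 and 0.00057). The WS call at 240 min was lost without WS replicate 2 (-0.87, adjusted p = 0.11) or replicate 3 (-1.0, adjusted p = 0.056). Without the 4 libraries the WS difference at 120 min was -2.08.

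PDS, the desaturase that acts on phytoene, had the smallest differences among the genes that fell in both ecotypes at 240 min. It lies on the minus strand of chromosome 4 (8190190 to 8195320) with 15 exon blocks. At 240 min it had 63.5, 53.6 and 55.9 RPKM in WS, against 65.5, 93.2 and 108 RPKM in WS at 0 min, and 41.0, 53.9 and 60.7 RPKM in Col-0, against 79.4, 83 and 66.7 RPKM in Col-0 at 0 min. The groups did not overlap, but the highest WS library at 240 min and the lowest at 0 min were close. The log2 differences were -0.59 in WS and -0.56 in Col-0 (SE 0.17 each, adjusted p = 0.013 and 0.015). In WS it was also called at 120 min without the 4 libraries (-0.53, adjusted p = 0.034). Both calls at 240 min ended with TPM (-0.32, adjusted p = 0.16 in WS and -0.37, adjusted p = 0.11 in Col-0), with voom, and without WS replicate 2 or 3 or Col-0 replicate 1 or 2.

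The cyclases LYCB and LUT2, which stand at the branch where lycopene goes toward beta-carotene or alpha-carotene, were both low at 120 min. LYCB, which closes beta rings and is needed on both branches, lies on the minus strand of chromosome 3 (3164075 to 3166038) as a single exon block. At 120 min it had 29.2, 24.3 and 34.7 RPKM in WS, against 53.3, 73.3 and 94.0 RPKM in WS at 0 min, and 40.9, 34.9 and 31.9 RPKM in Col-0, against 104, 82.9 and 102 RPKM in Col-0 at 0 min. No library at 120 min reached the lowest at 0 min. The means were 2.5-fold lower in WS and 2.69-fold lower in Col-0 (log2 -1.27 and -1.4, SE 0.24 each, adjusted p = 0.00013 and 5.8e-05). At 240 min LYCB had 46.4, 45.9 and 43.1 RPKM in WS and 21.9, 45.0 and 54.5 RPKM in Col-0 (log2 differences from 0 min -0.66 and -1.32, adjusted p = 0.043 and 0.00014). The WS call at 240 min ended with TPM (-0.39, adjusted p = 0.20), with voom, with no filter, and without WS replicate 2 or 3.

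LUT2, which closes the epsilon ring that makes lutein, was the only one called lower at 60 min. It lies on the plus strand of chromosome 5 (23077120 to 23080096) with 11 exon blocks. At 60 min it had 49, 37.3 and 32.8 RPKM in WS, against 80.8, 88.9 and 79.4 RPKM in WS at 0 min (log2 -1.06 ± SE 0.33, adjusted p = 0.016). In Col-0 at 60 min it had 53.7, 43.8 and 63.9 RPKM, against 82.9, 80.9 and 62.4 RPKM at 0 min, and did not pass (log2 -0.49, adjusted p = 0.34). The WS groups did not overlap and the Col-0 groups did, but the test of the difference between the responses gave an adjusted p of 0.87. The WS call at 60 min was lost without WS replicate 2 (adjusted p = 0.092) or replicate 3 (adjusted p = 0.062). At 120 min LUT2 had 14.8, 10.7 and 38.8 RPKM in WS and 38.5, 27.5 and 21.6 RPKM in Col-0, with means 3.88-fold and 2.58-fold lower than at 0 min (log2 -2.11 and -1.37, SE 0.33 each, adjusted p = 1.4e-05 and 0.0019). WS replicate 3 stood above its group there, and without the 4 libraries the WS difference was -2.65.

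At 240 min LUT2 had 58.0, 27.2 and 35.5 RPKM in WS and 24.1, 37.4 and 44.2 RPKM in Col-0, all below the lowest value at 0 min (log2 -1.10 and -1.11, adjusted p = 0.015 and 0.011). The WS call was lost without WS replicate 2 (-0.81, adjusted p = 0.20) and with voom, and the Col-0 call without Col-0 replicate 1 (-0.79, adjusted p = 0.20) or replicate 2 (-1.12, adjusted p = 0.07). The ratio of LYCB to LUT2 within a library does not depend on how the library was scaled. Its mean was 1.72 ± 0.728 in WS at 120 min, against 0.889 ± 0.268 in WS at 0 min, and 1.27 ± 0.206 in Col-0 at 120 min, against 1.31 ± 0.306 in Col-0 at 0 min (SD, n = 3). The libraries overlapped in both ecotypes, in WS through replicate 3 at 120 min (0.895), while the other WS ratios at 120 min (1.97 and 2.28) exceeded all those at 0 min.

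LUT5 and LUT1, the cytochrome P450 enzymes that hydroxylate the beta and epsilon rings of alpha-carotene, were called in WS at 120 min and nowhere else. LUT5 lies on the plus strand of chromosome 1 (11396402 to 11399714) with 15 exon blocks. Its group means stayed between 45.9 and 66.0 RPKM in WS and between 55.3 and 62.7 RPKM in Col-0, the narrowest range of the 10 genes (0.56 on the log2 scale over the 12 group means). At 120 min it had 38.9, 35.1 and 63.7 RPKM in WS, against 59.2, 70.0 and 65.3 RPKM in WS at 0 min (log2 -0.54 ± SE 0.21, adjusted p = 0.042), and the groups overlapped through WS replicate 3. In Col-0 the difference at 120 min was -0.15 (95% interval -0.58 to 0.28).

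LUT1 lies on the plus strand of chromosome 3 (19692757 to 19697542) with 12 exon blocks, and shares 1316 exon bases (39.2%) with AT3G53140 on the same strand, which is listed at 0 in every library, so its level is uncertain. At 120 min LUT1 had 9.92, 10.4 and 24.9 RPKM in WS, against 21.0, 26.0 and 21.0 RPKM in WS at 0 min (log2 -0.67 ± SE 0.27, adjusted p = 0.047). WS replicate 3 overlapped the libraries at 0 min and the other libraries lay well below. In Col-0 at 120 min LUT1 had 18.4, 12.3 and 7.53 RPKM, against 18.6, 15.4 and 17.7 RPKM at 0 min (log2 -0.48, adjusted p = 0.16). The WS calls of LUT1 and LUT5 at 120 min ended with TPM (adjusted p = 0.10 and 0.081), with no filter, with each ecotype fitted alone, with voom, and without WS replicate 1 or 2. Without the 4 libraries they were larger (-1.12 and -0.86), and LUT1 was then also called in Col-0 (-0.77, adjusted p = 0.0053).

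**Figure D2:**
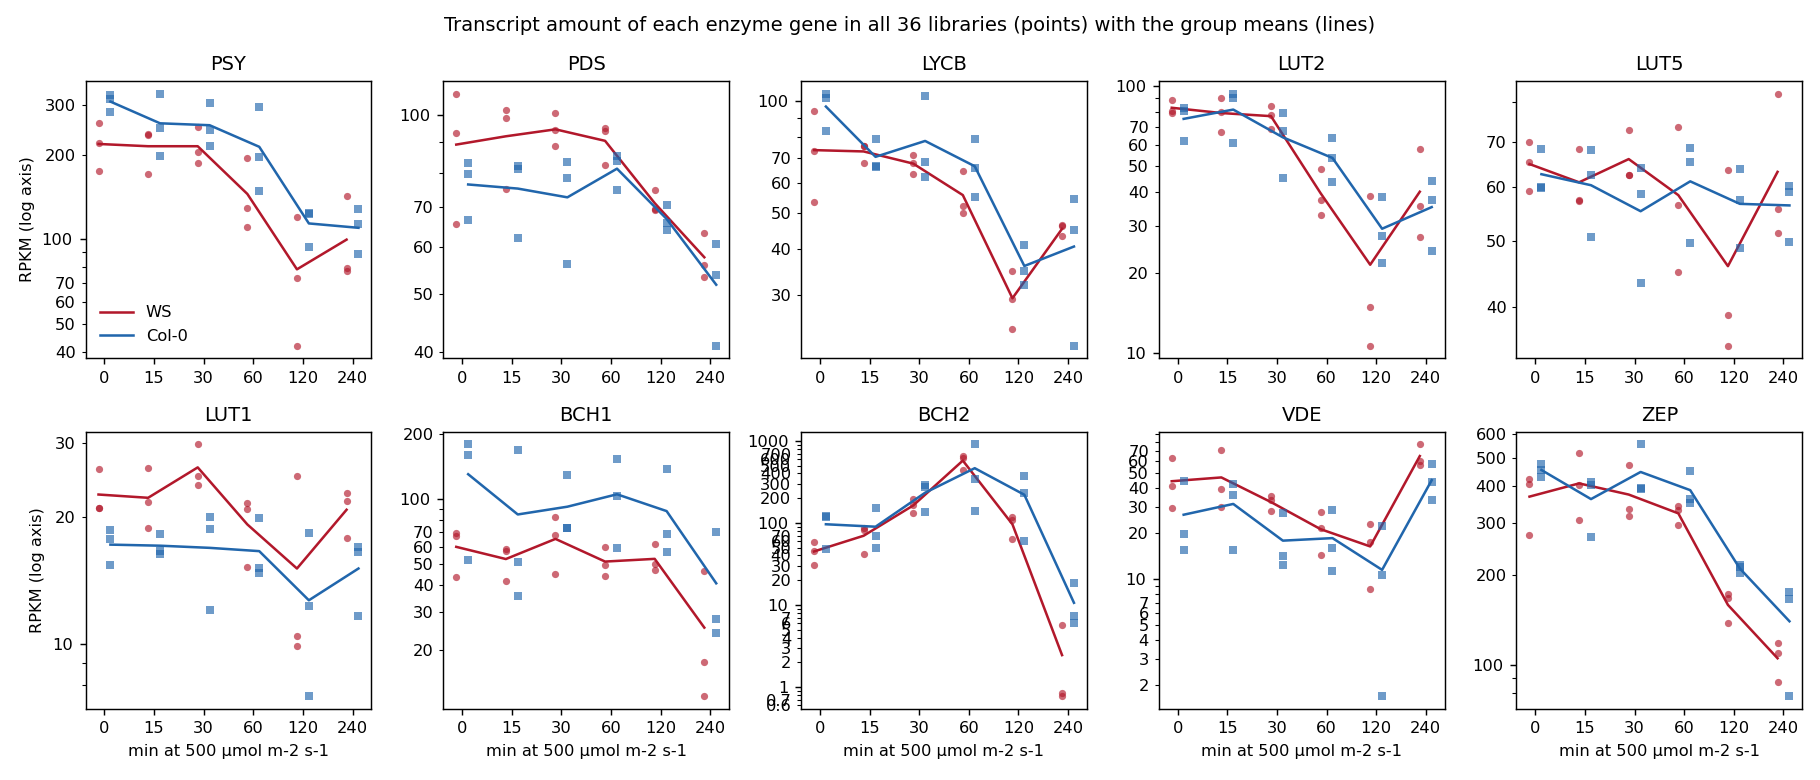
RPKM (log axis) of the 10 genes against min after the rise in PFD, with 1 point per library for WS (red circles) and Col-0 (blue squares) and lines through the group means. BCH2 climbs to means of 574 RPKM in WS and 464 RPKM in Col-0 at 60 min and is lowest at 240 min, VDE is lowest at 120 min and higher again at 240 min, and ZEP and PSY are low at 120 and 240 min.

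BCH2, a beta-carotene hydroxylase on the way to zeaxanthin, had the widest course of the 10 genes and was the only one called above its level at 0 min. It lies on the minus strand of chromosome 5 (21334793 to 21337126) with 7 exon blocks. Group means in WS were 44.8 RPKM at 0 min, 69.6 at 15 min, 163 at 30 min, 574 at 60 min, 96.0 at 120 min and 2.44 at 240 min. The Col-0 means were 96.1, 89.7, 233, 464, 220 and 10.6 RPKM at the same times. The peak of the means was at 60 min and the trough at 240 min in both ecotypes, 235-fold apart in WS and 43.8-fold apart in Col-0.

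At 60 min BCH2 had 660.4, 445 and 617 RPKM in WS, against 44.9, 59.2 and 30.4 RPKM in WS at 0 min. The WS groups were far from overlapping, and the mean was 12.8-fold higher (log2 3.68 ± SE 0.64, adjusted p = 0.00011), a call kept in every alternative. In Col-0 at 60 min BCH2 had 138, 346 and 908 RPKM, against 122, 48.2 and 118 RPKM at 0 min. Here the lowest library at 60 min was just above the highest at 0 min and the spread was wide (mean 464 ± 398 RPKM, 4.83-fold higher, log2 1.98 ± SE 0.64, adjusted p = 0.033). That call ended with no filter (adjusted p = 0.058), with Col-0 fitted alone (adjusted p = 0.10), and without Col-0 replicate 2 (1.56, adjusted p = 0.33) or replicate 3 (1.5, adjusted p = 0.15). Without the 4 libraries, which include the lowest Col-0 one at 60 min, it was 2.65 (adjusted p = 0.0019). That library was chosen after seeing the data, and leaving out the lowest one by itself raises this difference. The larger value is therefore no added support. The response at 60 min was 1.70 larger in WS than in Col-0 on the log2 scale (95% interval -0.14 to 3.55, adjusted p = 0.75).

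At 30 min, before the peak, BCH2 had 163, 132 and 193 RPKM in WS and 276, 135 and 289 RPKM in Col-0. All of these were above every library of the same ecotype at 0 min, yet neither difference passed the test (log2 1.87 in WS and 1.31 in Col-0, unadjusted p under 0.05 for 1 of the 10 genes in each). With the plant as a replicate block, the WS difference at 30 min passed (adjusted p = 0.015), as it did with WS fitted alone (adjusted p = 0.018) and without the 4 libraries (1.90, adjusted p = 0.049). At 120 min BCH2 had 107, 117 and 63.1 RPKM in WS and 59.3, 228 and 373 RPKM in Col-0 (log2 differences from 0 min 1.08 and 0.95, adjusted p = 0.18 and 0.26). The lowest Col-0 library was replicate 1, and without Col-0 replicate 1 the difference was 1.94 (adjusted p = 0.024).

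At 240 min BCH2 had 5.72, 0.77 and 0.84 RPKM in WS (209, 52 and 35 reads), against the 44.9, 59.2 and 30.4 RPKM at 0 min. In Col-0 it had 7.37, 6.0 and 18.5 RPKM (262, 259 and 378 reads), against 122, 48.2 and 118 RPKM at 0 min. Every library at 240 min was below every library at 0 min. The means were 18.4-fold lower in WS and 9.05-fold lower in Col-0 (log2 -3.98 and -3.10, SE 0.64 each, adjusted p = 3.4e-05 and 0.00056), and both calls were kept in every alternative. From 120 to 240 min alone the log2 difference was -5.07 in WS and -4.05 in Col-0 (adjusted p = 2.3e-05 and 0.00046), the second of which was lost without Col-0 replicate 2 (-3.56, adjusted p = 0.064).

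BCH1 encodes the other beta-carotene hydroxylase and was not called at 60 min. It lies on the minus strand of chromosome 4 (13093869 to 13096049) with 6 exon blocks. At 60 min it had 60.2, 44.1 and 49.6 RPKM in WS, against 67.2, 69.4 and 43.4 RPKM at 0 min, and 103, 59.1 and 152 RPKM in Col-0, against 179, 52.4 and 159 RPKM at 0 min. The libraries overlapped in both ecotypes, and the log2 differences were -0.20 (95% interval -1.28 to 0.87) and -0.23 (95% interval -1.30 to 0.85). At 240 min BCH1 had 46.4, 17.6 and 12.2 RPKM in WS and 24.0, 27.9 and 70.1 RPKM in Col-0. The Col-0 difference from 0 min passed the test though the groups overlapped (log2 -1.64 ± SE 0.53, adjusted p = 0.019), and was lost with Col-0 fitted alone (adjusted p = 0.066) and without Col-0 replicate 1 (-1.03, adjusted p = 0.29). The WS difference of -1.4 did not pass (adjusted p = 0.052), but did with WS fitted alone (adjusted p = 0.012) and with the replicate block (adjusted p = 0.011). The block also called BCH1 from 120 to 240 min, with differences of -1.24 in WS and -1.15 in Col-0 (adjusted p = 0.025 and 0.049).

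The ratio of BCH2 to BCH1 within each library compared both genes without any scaling. In WS the mean ratio was 0.740 ± 0.0986 at 0 min, 1.29 ± 0.264 at 15 min, 2.76 ± 1.4 at 30 min, 11.2 ± 1.18 at 60 min, 1.82 ± 0.519 at 120 min and 0.0786 ± 0.0406 at 240 min (SD, n = 3). In Col-0 it was 0.781 ± 0.124, 1.22 ± 0.276, 2.64 ± 1.14, 4.39 ± 2.64, 2.52 ± 1.57 and 0.262 ± 0.0463 at the same times. At 0 min the ratios of the ecotypes overlapped, and at 30 and 60 min all libraries exceeded those of their ecotype at 0 min. At 60 min the Col-0 ratios were 1.34, 5.85 and 5.97, against the WS ratios of 11, 10.1 and 12.4, without overlap, and Col-0 replicate 1 was the low one. At 240 min every ratio was below every ratio at 0 min.

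**Figure D3:**
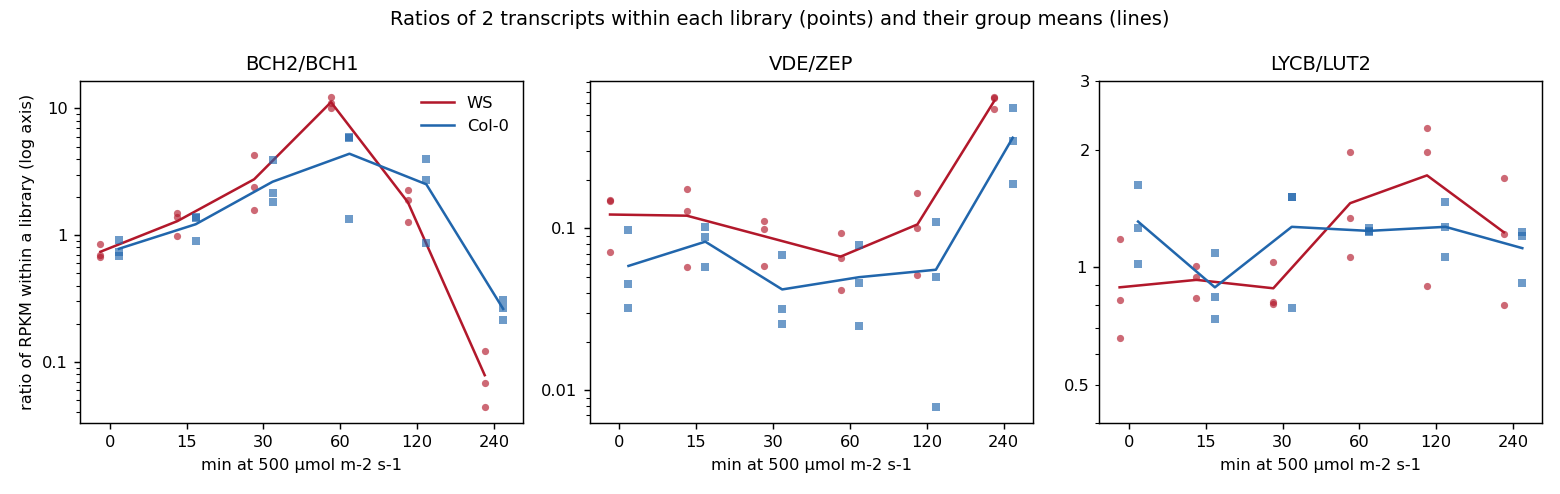
Ratios of RPKM within each library (log axes) of BCH2 to BCH1, VDE to ZEP and LYCB to LUT2 against min after the rise in PFD, with points for the libraries of WS (red circles) and Col-0 (blue squares) and lines through group means. BCH2 to BCH1 peaks at 60 min (11.2 in WS and 4.39 in Col-0), VDE to ZEP is highest at 240 min (0.615 and 0.364), and the means of LYCB to LUT2 lie between 0.884 and 1.72.

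VDE and ZEP, the enzymes of the xanthophyll cycle, were both called lower at 120 min, whereas at 240 min ZEP was called lower and VDE was not. ZEP lies on the minus strand of chromosome 5 (26753469 to 26757402) with 16 exon blocks. It had 173, 167 and 138 RPKM in WS at 120 min and 118, 109 and 87.4 RPKM in WS at 240 min, against 274, 408 and 423 RPKM in WS at 0 min. In Col-0 it had 203, 214 and 216 RPKM at 120 min and 78.2, 166 and 176 RPKM at 240 min, against 431, 453 and 476 RPKM at 0 min. Each of these groups lay wholly below its libraries at 0 min. The means were 2.31-fold and 3.51-fold lower in WS at 120 and 240 min (log2 -1.18 and -1.79, SE 0.25 each, adjusted p = 0.00049 and 5.7e-06). In Col-0 they were 2.15-fold and 3.24-fold lower (log2 -1.10 and -1.77, SE 0.25 each, adjusted p = 0.0012 and 6.9e-06). These 4 calls were kept in every alternative. Until 60 min ZEP had not been called in either ecotype.

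VDE lies on the plus strand of chromosome 1 (2706868 to 2709988) with 5 exon blocks, and shares 464 exon bases (18.0%) with SYP111 on the opposite strand, which did not exceed 3.25 RPKM in any library. At 120 min VDE had 17.6, 8.64 and 23.0 RPKM in WS, against 40.8, 29.2 and 62.2 RPKM in WS at 0 min. In Col-0 at 120 min it had 22.2, 10.7 and 1.70 RPKM, against 19.7, 44.4 and 15.4 RPKM at 0 min. The WS groups did not overlap, and the Col-0 groups did. Both differences passed the test (log2 -1.4 and -1.47, SE 0.55 each, adjusted p = 0.042 and 0.038). Of 13 alternatives, 6 kept the WS call and 9 kept the Col-0 call. The WS call ended with TPM (adjusted p = 0.064), a pseudocount of 0.1 RPKM, no filter, voom, and without any one of the WS replicates. The Col-0 call ended with no filter, with Col-0 fitted alone, and without Col-0 replicate 2 (-1.22, adjusted p = 0.20) or replicate 3, which held the value of 1.70 RPKM (-0.90, adjusted p = 0.21). Without the 4 libraries they were -1.71 and -2.15 (adjusted p = 0.023 and 0.0026).

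At 240 min VDE had 77.0, 60.2 and 56.0 RPKM in WS, against 17.6, 8.64 and 23.0 RPKM in WS at 120 min. In Col-0 it had 43.6, 57.4 and 33.2 RPKM at 240 min, against 22.2, 10.7 and 1.70 RPKM at 120 min. No libraries overlapped between these times, and VDE rose in both ecotypes (log2 2.00 and 2.31, SE 0.55 each, adjusted p = 0.011 and 0.0092). These calls were lost without WS replicate 1 (1.96, adjusted p = 0.096) or 2 (1.66, adjusted p = 0.21), with Col-0 fitted alone (2.31, adjusted p = 0.065), and without Col-0 replicate 2 (2.3, adjusted p = 0.12) or 3 (1.63, adjusted p = 0.11). Against 0 min, VDE at 240 min was not called (log2 0.59 in WS and 0.84 in Col-0, adjusted p = 0.49 and 0.26). The mean ratio of VDE to ZEP was 0.615 ± 0.0564 in WS at 240 min, against 0.122 ± 0.0441 in WS at 0 min, and 0.364 ± 0.185 in Col-0 at 240 min, against 0.0587 ± 0.0348 in Col-0 at 0 min (SD, n = 3). All ratios at 240 min exceeded all those at 0 min of the same ecotype.

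From 120 to 240 min, 2 of 10 genes rose in WS (LUT2 and VDE) and 1 fell (BCH2), beside 10.3% and 11.9% of all genes, and in Col-0 1 rose (VDE) and 1 fell (BCH2), beside 6.64% and 5.81%. The recovery of LUT2 in WS had a log2 difference of 1.02 (adjusted p = 0.026) and was lost without WS replicate 1 (0.57, adjusted p = 0.39) or 2 (0.89, adjusted p = 0.24), as well as with WS fitted alone (adjusted p = 0.05 when rounded). LYCB, LUT1 and LUT5 lay 0.61, 0.55 and 0.47 higher in WS at 240 than at 120 min and did not pass (adjusted p = 0.062, 0.14 and 0.10). Without the 4 libraries they did (0.74, 0.96 and 0.73, adjusted p = 0.027, 0.0013 and 0.0095), so that 5 genes rose in WS, beside 17.0% of all genes in that fit. In Col-0, LUT1 then rose together with VDE (0.57, adjusted p = 0.042), beside 15.6% of all genes. That fit leaves out the 120 min libraries nearest to 240 min, which by itself tends to widen this step. These gains are therefore no added support. With TPM, which put the median of all genes at 0.11 in WS and 0.17 in Col-0 in this step (-0.03 in each as deposited), LYCB and LUT5 passed as well, and the share of higher among all genes called became 62.7% in WS (46.3% as deposited) and 82.4% in Col-0 (53.3% as deposited).

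The responses of WS and Col-0 were compared directly by an interaction. At 15, 30, 60, 120 and 240 min, 0 of 10 genes differed in response by limma, where 0.0145%, 0.00724%, 0.232%, 0.13% and 0.0941% of all genes did. At an unadjusted p under 0.05 the counts were also 0 at every time, and voom gave 0. TPM moved the median difference in response of all genes to 0.15 at 120 min. Few genes were called with TPM, 13 positive and 7 negative at 120 min (65% positive), against 8 and 10 as deposited (44.4%). At 240 min they were 8 and 3 with TPM (72.7%), against 7 and 6 as deposited (53.8%). The intervals were wide for the genes with the largest spread. At 120 min, the response of BCH2 differed by 0.13 (95% interval -1.71 to 1.98) and that of VDE by 0.06 (-1.53 to 1.66), while for PDS the difference was -0.11 (-0.61 to 0.40). At 240 min the difference was 0.66 for LYCB (-0.02 to 1.35) and -0.01 for ZEP (-0.74 to 0.71).

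**Figure D4:**
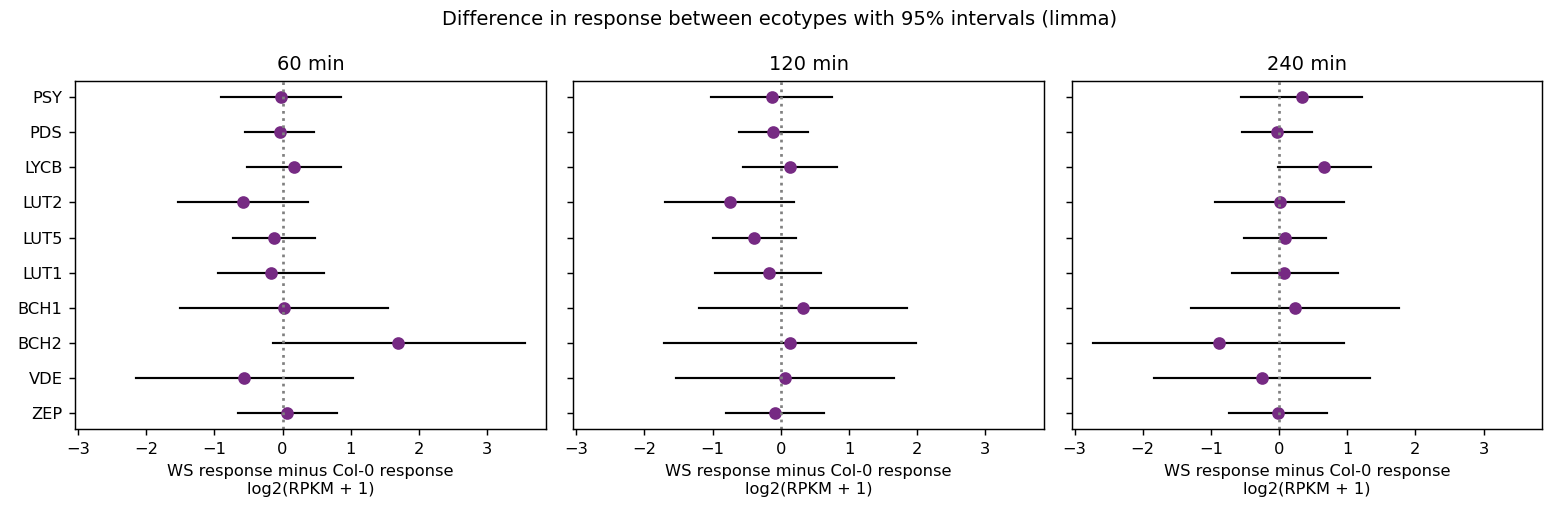
WS response minus Col-0 response on the log2(RPKM + 1) scale for the 10 genes at 60, 120 and 240 min, with points for the estimates and lines for 95% intervals from limma. Every interval includes 0, and those of BCH2, VDE and BCH1 are the widest.

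The genes around these enzymes were counted in 3 lists. Of 10 genes that supply isoprenoid precursors, 9 were tested, since GGPPS11 (the main plastid geranylgeranyl diphosphate synthase) is listed at 0 in every library. All of its exon bases are shared with AT4G36808 on the opposite strand. In WS, 0 rose at any time, and 0, 0, 1, 3 and 3 fell at 15, 30, 60, 120 and 240 min. In Col-0, 0 rose and 0, 0, 0, 2 and 2 fell. At 60 min, 10% of all genes fell in WS and 6.44% in Col-0. At 120 min, 17.3% of all genes fell in WS and 15.7% in Col-0. By 240 min these shares were 10.1% in WS and 13.1% in Col-0. The fit without the 4 libraries called 6 of the 9 lower in WS at 120 min (MCT, CMK and IDI1 in addition), beside 19.6% of all genes. It also called 1 lower in Col-0 at 60 min (DXS), beside 9.53% of all genes. The median log2 difference of the 9 genes was -0.27 in WS and 0.02 in Col-0 at 120 min and 0.11 in WS and -0.10 in Col-0 at 240 min. DXS, DXR and HDR were the genes that fell in WS, and DXS and HDR those in Col-0. DXS, its first enzyme, had 49.2, 44.3 and 118 RPKM in WS at 120 min, against 172, 255 and 269 RPKM in WS at 0 min (log2 -1.82, adjusted p = 0.00022), and 139, 123 and 49.8 RPKM in Col-0 at 120 min, against 218, 322 and 218 RPKM in Col-0 at 0 min (log2 -1.38, adjusted p = 0.0035, lost without Col-0 replicate 3). HDR, its last enzyme, had 156, 213 and 172 RPKM in WS at 240 min, against 446, 508 and 561 RPKM in WS at 0 min (log2 -1.48, adjusted p = 3.1e-06). In Col-0 it had 116, 123 and 239 RPKM at 240 min, against 451, 451 and 404 RPKM at 0 min (log2 -1.52, adjusted p = 2.6e-06), and both HDR calls at 240 min were kept in every alternative. DXR, the second enzyme, fell in WS at 120 and 240 min (-0.65 and -0.79, adjusted p = 0.033 and 0.017), which TPM (adjusted p = 0.079 and 0.11), voom (0.061 and 0.11) and leaving out WS replicate 2 (0.25 and 0.18) ended, as did leaving out WS replicate 1 at 120 min (0.17) or WS replicate 3 at 240 min (0.15). IDI2, an isomerase of the precursors, was not called at any time, but with the replicate block it was higher in Col-0 at 120 min (0.31, adjusted p = 0.041). With TPM it was also called higher at 240 min (0.39 in WS and 0.48 in Col-0). TPM moved the median of all genes at 240 min to 0.27 in WS and 0.21 in Col-0. MDS in WS (0.41) and IDI1 in Col-0 (0.52) became higher with TPM at 240 min as well.

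Of 8 other genes of carotenoid synthesis, 7 were tested (NXD1 never exceeded 7 RPKM). In WS, 0, 0, 1, 1 and 1 rose and 0, 0, 0, 3 and 2 fell from 15 to 240 min in order, and in Col-0 0 rose and 0, 0, 0, 3 and 3 fell. Beside the 3 lower in WS and 3 in Col-0 at 120 min stand 17.3% and 15.7% of all genes, and beside the 1 higher in WS 23.2%. At 240 min, 10.1% of all genes fell in WS and 13.1% in Col-0. In WS, 16.8% of all genes rose at 60 min and 14.5% at 240 min. With the 4 libraries left out, 5 were lower in WS at 120 min (ZDS and CRTISO in addition), beside 19.6% of all genes. The median log2 difference was -0.46 in WS and -0.26 in Col-0 at 120 min and -0.07 in WS and -0.38 in Col-0 at 240 min. OR, a chaperone that stabilises the PSY protein, had 28.5, 29.7 and 29.5 RPKM in WS at 120 min, against 76.7, 75.3 and 74.0 RPKM in WS at 0 min (log2 -1.34, adjusted p = 2.7e-07). In Col-0 it had 29.4, 39.4 and 32.2 RPKM at 120 min, against 71.3, 65.2 and 60.7 RPKM at 0 min (log2 -0.95, adjusted p = 4.1e-05). OR was also lower at 240 min (-1.31 and -1.17), and these 4 calls were kept in every alternative. OR-like, its relative, fell at 120 min (-0.71 in WS and -0.57 in Col-0, adjusted p = 0.0036 and 0.018), which did not hold without WS replicate 1 or 2 or without Col-0 replicate 1 or 3. ABA4, needed for neoxanthin, fell at 120 min (-1.18 and -1.06, adjusted p = 0.0005 and 0.0018), and in WS rose again from 120 to 240 min (1.11, adjusted p = 0.0028, lost without WS replicate 2 with 0.78 and 0.19). Without WS replicate 2 the WS difference of ABA4 at 120 min was -0.84 (adjusted p = 0.057), and without Col-0 replicate 3 that in Col-0 was -0.59 (adjusted p = 0.11). ZDS, the desaturase after PDS, fell at 240 min (-0.82 and -0.72, adjusted p = 0.0026 and 0.0061, lost without WS replicate 2 or 3 or Col-0 replicate 1). The single gene that rose was PTOX, the plastid terminal oxidase that takes electrons from phytoene desaturation, in WS at 60, 120 and 240 min (0.63, 0.56 and 0.58, adjusted p = 0.026, 0.037 and 0.045). It is named after its values were seen, and each of its calls was lost in several alternatives, such as without WS replicate 1.

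Of 9 carotenoid cleavage dioxygenases, 3 were tested. In WS, 1, 0, 0, 0 and 0 rose and 0, 0, 1, 2 and 1 fell from 15 to 240 min in order, and in Col-0 1, 1, 0, 0 and 0 rose and 0, 0, 1, 1 and 1 fell. Among all genes, 2.64% rose in WS and 2.85% in Col-0 at 15 min, and 5.08% rose in Col-0 at 30 min. The shares of all genes that fell were 10% in WS and 6.44% in Col-0 at 60 min. They were 17.3% in WS and 15.7% in Col-0 at 120 min, and 10.1% in WS and 13.1% in Col-0 at 240 min. Neither WS call at 120 min held with the 4 libraries left out (CCD4 -1.82, adjusted p = 0.068, and CCD1 -0.38, adjusted p = 0.21). NCED3, which makes the ABA precursor from cis-epoxycarotenoids, rose early. At 15 min it had 69.8, 52.1 and 7.93 RPKM in WS, against 7.37, 3.14 and 6.37 RPKM in WS at 0 min, and 24.6, 43.8 and 11.3 RPKM in Col-0, against 1.61, 2.52 and 3.01 RPKM in Col-0 at 0 min. WS replicate 3 was barely above the libraries at 0 min. The log2 differences were 2.35 in WS (adjusted p just under the threshold, 0.05 when rounded, a call lost in most alternatives) and 2.86 in Col-0 (adjusted p = 0.01, lost without Col-0 replicate 1 or 2). At 30 min the difference was 3.23 in Col-0 (adjusted p = 0.0027), and without Col-0 replicate 3 it was 3.11 (adjusted p = 0.06). With the replicate block NCED3 was also higher in Col-0 at 60 min (1.60, adjusted p = 0.047). CCD4, which cleaves carotenoids in plastids, moved the other way. At 60 min it had 17.6, 40.8 and 36.7 RPKM in WS, against 220, 221 and 362 RPKM in WS at 0 min (log2 -3.08, adjusted p = 0.00098), and at 120 min 21.4, 35.2 and 3.90 RPKM in Col-0, against 183, 242 and 156 RPKM in Col-0 at 0 min (log2 -3.60, adjusted p = 0.00016). Both of these calls were kept in every alternative. CCD4 was also called in WS at 120 min (-2.06, adjusted p = 0.015), which was lost without WS replicate 2 (0.10), WS replicate 3 (0.19) or the 4 libraries, and in Col-0 at 60 min (-2.40, adjusted p = 0.014), which was lost with Col-0 fitted alone (0.07) and without Col-0 replicate 2 (0.11) or 3 (0.07). With the replicate block it was lower in Col-0 at 240 min as well (-1.68, adjusted p = 0.039), and higher there than at 120 min (1.92, adjusted p = 0.034). CCD1, a cytosolic cleavage enzyme, fell in WS at 120 and 240 min (-0.60 and -0.74) and in Col-0 at 240 min (-0.70), and each of these calls was lost without replicate 1 of its ecotype.

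**Figure D5:**
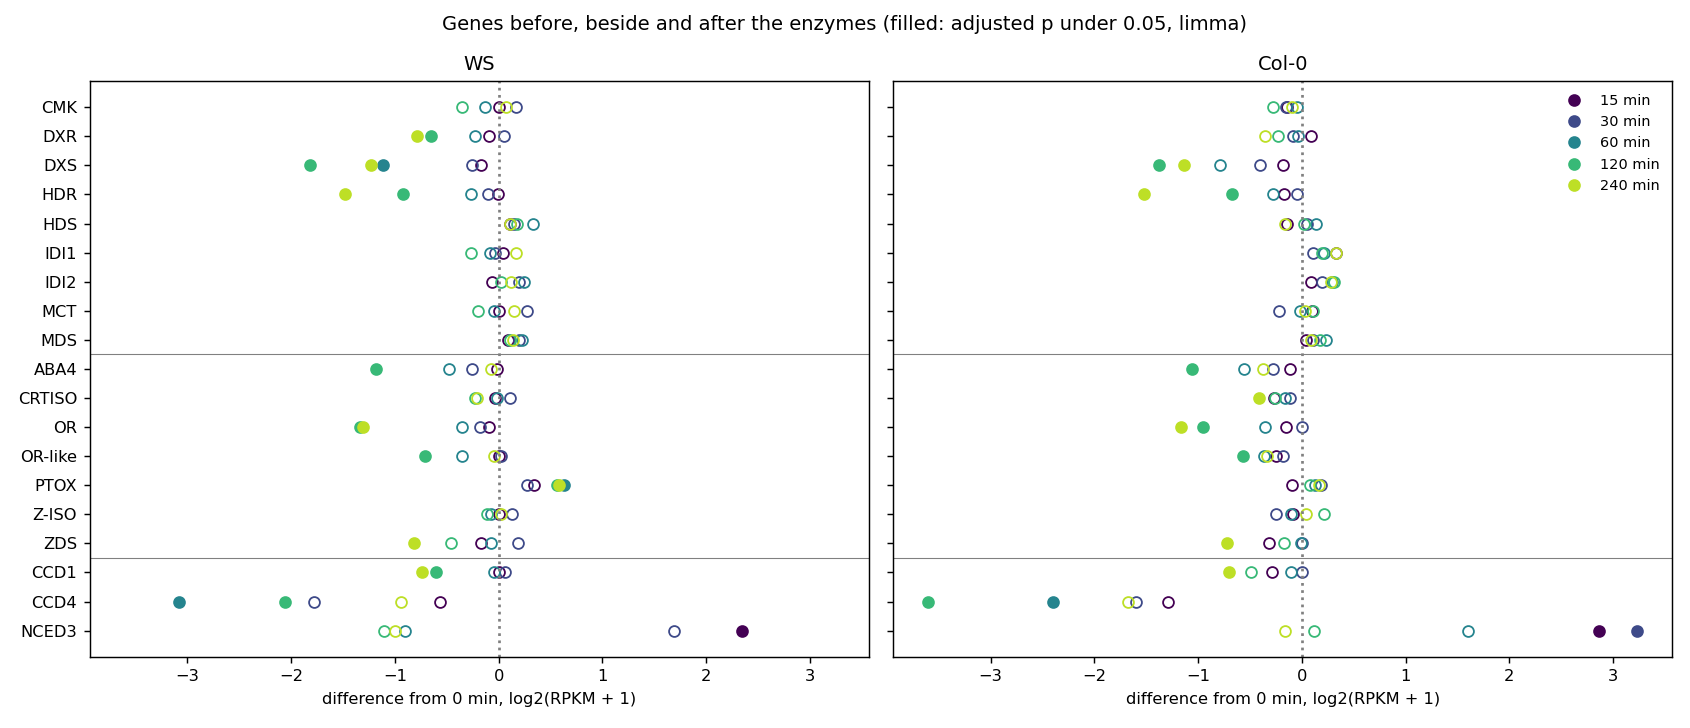
Log2 difference from 0 min on the log2(RPKM + 1) scale (x axis) of the genes of precursor supply (top), other carotenoid synthesis (middle) and carotenoid cleavage (bottom) in WS (left) and Col-0 (right), coloured by time and filled where limma's adjusted p was under 0.05. DXS, HDR, OR and CCD4 lie to the left at late times, and NCED3 lies to the right at 15 min (2.35 in WS and 2.86 in Col-0).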

How the data were processed

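RNA-Seq was done on 36 leaf libraries, 3 for each of 12 groups of ecotype and time (labels and titles). The submitters' notes name Trimmomatic 0.32 and FastQC for reads, STAR 2.3.0e for alignment to TAIR10 and featureCounts for counting, and the authors deposited RPKM values, scaled per library. The strand setting was not given in the sources used here, nor the annotation release, so reads of overlapping genes may have been shared or left out. GGPPS11, overlapped in all its exon bases, was at 0, and its neighbour AT4G36808 did not exceed 0.14 RPKM. PSY, LYCB, LUT2, LUT5 and BCH2 share between 19 and 199 exon bases with a neighbour. The label gives 20 where titles give 30 min, and the titles' minutes were used. Of the sample columns, 0 went unused. Whole reads were recovered from the RPKM steps with exon lengths of TAIR10.1 (RefSeq), matched for 37051 of 37336 genes, and 99.79 to 100.0% of values in a library lay within 0.1 read of a whole number.

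The fit took log2(RPKM + 1) of the libraries into limma 3.58.1 (R 4.3.3, eBayes with trend) for the 13817 genes with a reading above 7 RPKM, with 24 residual degrees of freedom. Tests were 2-sided, and the Benjamini-Hochberg adjustment ran over all genes of a comparison, with a threshold of 0.05. Fold changes are ratios of mean RPKM, and log2 differences, on the log2(RPKM + 1) scale, understate changes of low genes. SD covers the spread between the 3 libraries of a group. SE and p values use a spread pooled for each gene over all groups, with the repeated leaves of a plant taken as independent. Only the fit with the replicate block modelled the plant. The fit was tested on simulated data. Named are the 10 genes, up to 4 genes per list (those of smallest adjusted p over the comparisons with 0 min), and the genes most alike to the 3 members with the widest range. PTOX, CRTISO, MCT, CMK, MDS and IDI1 lie outside this rule and were named after their values were seen. The members and lists were chosen with earlier results of these data known.

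Alternatives were a pseudocount of 0.1 RPKM, a filter of 1 RPKM in 3 libraries, no filter, TPM, median of ratios, each ecotype alone, no trend, voom on recovered reads, each plant left out, the plant as a replicate block and, added after seeing the data, no 4 libraries. Replicate numbers were read as plants, following the methods. Deviations from group means correlated with a median of 0.131 between same-numbered libraries in WS (-0.085 between others) and 0.0773 in Col-0 (-0.0344 between others).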

Additional observations from a re-analysis of the deposited data

How the results depend on the processing

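Over all alternatives, 2450 values of the 10 genes were recomputed, and 2365 kept their side of the threshold (with 153 changes of sign where neither value was called), 60 lost a call, 25 gained one and 0 reversed. Mainly the larger changes in the counts of called genes are listed, and smaller ones also occurred. The number of genes called in WS at 30 min against 0 min was 0 and became 1 with each ecotype alone, with the replicate block and without the 4 libraries. In WS at 120 min it was 7 and became 4 with no filter, with TPM and with voom. In WS at 240 min it was 6 and became 3 with voom, and TPM ended the calls of PDS and LYCB there. In Col-0 at 120 min, the VDE call ended with no filter and with Col-0 fitted alone. Without the 4 libraries, 6 genes were lower and 1 higher in Col-0 at 120 min. In Col-0 at 60 min the number called was 1 and became 0 with no filter and with each ecotype alone. From 120 to 240 min the number was 3 in WS and became 5 with TPM and with voom and 6 without the 4 libraries. In Col-0 it was 2 and became 1 with each ecotype alone. With 1 replicate left out, the counts in WS were 1 to 2 (60 min), 4 to 6 (120 min), 2 to 6 (240 min) and 1 to 5 (240 against 120 min). In Col-0 they were 0 to 1, 4 to 6, 4 to 7 and 0 to 2 for the same comparisons. The counts at 15 and 30 min, of differing responses and of ecotype differences at 0 min ranged from 0 to 0. The replicate block changed no call of the 10 genes beyond the 4 given for BCH2 and BCH1, and could not estimate the ecotype difference at 0 min. The cause of these changes was not tested. With 3 plants per ecotype and 35 reads behind the lowest value, intervals are wide for BCH2, BCH1 and VDE.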

Other observations

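Genes with a course most like those of the 3 widest members were looked up by Pearson's r over the 12 group means of log2(RPKM + 1), which share libraries and are given as a description. For BCH2 they were IPK1 (AT5G42810, r = 0.990), which encodes an inositol phosphate kinase, AT1G25420 (0.976) and AT2G26800 (0.972). IPK1 means in WS were 11.7 RPKM at 0 min, 21.2 RPKM at 60 min and 6.13 RPKM at 240 min, a far narrower range than that of BCH2. For VDE they were AT1G19740 (0.993), BBD1 (AT1G75380, 0.970) and AT1G70160 (0.967). For BCH1 they were AT4G27680 (0.977), NDT1 (AT2G47490, 0.968) and C4H (AT2G30490, 0.962), the hydroxylase of cinnamate in phenylpropanoid synthesis.

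Among the 10 genes, the highest r over the 12 group means were 0.96 between PSY and LYCB, 0.93 between LYCB and LUT2, 0.92 between PSY and LUT2 and 0.90 between PSY and ZEP, while LUT2 and ZEP had 0.76. BCH1 and BCH2 had 0.76, the highest r of BCH2 with another of the 10 genes. VDE and BCH2 moved apart, with r of -0.73.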
